A study of Mus musculus with 11 samples.

Results

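The 8 genes of myelinating Schwann cells *Pmp22*, *Mbp*, *Mag*, *Prx*, *Mal*, *Egr2*, *Cnp* and *Ncmap* were followed by RNA-Seq in mouse dorsal root ganglia (DRGs). They were taken by symbol, and all 8 were found, each in 1 row, among the 36670 genes of the table. The libraries came from 4 groups: 3 WT controls, 3 WT mice at 4 weeks after paclitaxel (PTX), 3 *Gpr37l1* KO controls and 2 *Gpr37l1* KO mice at 4 weeks after PTX. PTX is a chemotherapy drug that causes painful neuropathy, and *Gpr37l1* encodes an orphan receptor of satellite glial cells. The KO mice carried the *Gpr37l1*tm1Lex allele in the germ line, so that no cell type was spared, and both genotypes were kept on a C57BL/6 background. The labels give neither an age nor the injection schedule of the sequenced mice. Replicate 3 was female and the other replicates were male in each group. The KO PTX libraries are called 2 and 3 after their descriptions, although their titles number them 1 and 2.

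Schwann cells wrap single large axons of the peripheral nerve in a compact spiral of membrane, which speeds conduction. In the DRG they accompany the axons that leave the sensory neuron bodies, while satellite glial cells cover the bodies themselves and make no compact myelin. The transcription factor EGR2, acting with SOX10, drives and maintains the myelin gene program. PMP22 is a membrane protein of compact peripheral myelin, and its gene dose determines common inherited neuropathies. MBP holds the cytoplasmic faces of the membrane together, MAG sits at the contact with the axon, and CNP keeps cytoplasmic channels in the sheath open. Periaxin (PRX) links the outside of the sheath to the basal lamina through the dystroglycan complex, MAL organizes membrane rafts, and NCMAP is a small membrane protein of noncompact myelin. *Mbp*, *Mag*, *Mal* and *Cnp* are also used by oligodendrocytes, the myelinating cells of the central nervous system, whereas *Pmp22*, *Prx*, *Egr2* and *Ncmap* are largely Schwann cell genes.

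Because EGR2 is both a gene of this set and a regulator of the others, the sequence upstream of their start sites is shown for 3 genes in which a short EGR or SOX motif was found. RefSeq windows of build GRCm38.p6, which run from 250 bases before to 50 bases after a start, were available for 7 of the 8 genes. GCGTGGG, a core of the EGR site, was searched for on both strands and occurred in *Prx*, *Ncmap* and *Cnp*, that is in 3 of 7 genes, against 5.74% of 27025 genes. It lay 161 bases before the start in *Prx*, 35 bases before 1 of 2 starts in *Ncmap*, and began at base 20 of the transcript in *Cnp*. The longer GCGTGGGCG, which contains it, occurred in 0 of the 7 and in 0.707% of all genes. ACAAAG, a core of the SOX site, was found in *Mag* and *Cnp*, against 21.0% of all genes. Genes with several starts have several windows, and a match describes letters, not binding. In the 250 bases before the start, written 5′ to 3′ along the gene, capitals mark GCGTGGG or its reverse complement in *Prx* and *Ncmap* and ACAAAG in *Cnp*. The *Prx* and *Ncmap* stretches lie within the deposited gene spans, which begin further upstream. The *Cnp* stretch reaches past the deposited start of *Cnp* at chr11:100574904. The stretches are chr7:27499074-27499323 (plus strand), chr4:135385673-135385922 (minus strand) and chr11:100574689-100574938 (plus strand).
*Prx*: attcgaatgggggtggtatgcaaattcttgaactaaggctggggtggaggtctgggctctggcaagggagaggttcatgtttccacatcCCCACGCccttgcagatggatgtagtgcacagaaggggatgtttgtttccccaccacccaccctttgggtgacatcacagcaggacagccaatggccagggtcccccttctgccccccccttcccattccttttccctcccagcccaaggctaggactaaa
*Ncmap*: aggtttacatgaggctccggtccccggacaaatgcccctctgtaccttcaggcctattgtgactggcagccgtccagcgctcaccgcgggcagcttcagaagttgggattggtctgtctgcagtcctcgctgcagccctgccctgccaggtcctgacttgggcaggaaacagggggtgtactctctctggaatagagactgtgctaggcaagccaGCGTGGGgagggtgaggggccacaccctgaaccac
*Cnp*: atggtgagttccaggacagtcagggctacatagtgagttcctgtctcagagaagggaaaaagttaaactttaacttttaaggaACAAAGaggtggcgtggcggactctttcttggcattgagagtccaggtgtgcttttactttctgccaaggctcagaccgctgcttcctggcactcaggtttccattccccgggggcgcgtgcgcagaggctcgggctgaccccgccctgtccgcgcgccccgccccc

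Several facts of the libraries bear on these genes. The deposited counts summed to 52735648 to 80348732 per library, and the libraries fell into 7 of at least 60000000 counts and 4 below that: WT control 1, WT PTX 3 and both KO PTX libraries. *Gpr37l1* measured 0.21 to 1.15 FPKM in the 5 KO libraries and 14.6 to 35.7 FPKM in the 6 WT libraries. FPKM is a fragment count per transcript length and per library size. The 7 oligodendrocyte markers *Mog*, *Mobp*, *Opalin*, *Hapln2*, *Ermn*, *Olig2* and *Tmem125* summed to 0.34 to 0.68 FPKM in the 7 deeper libraries, to 2.18 to 2.78 FPKM in 3 of the shallower ones and to 10.7 FPKM in KO PTX 3. *Olig2* was at 0 in 7 libraries and at most 0.48 FPKM. The 8 sensory neuron markers that check the DRG label summed to 3648 to 4553 FPKM. Separate mice are implied but not stated by the labels, so *P* values measure the spread between these samples.

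The 8 genes spanned a wide range of levels, and their order was nearly fixed from library to library. *Pmp22*, the most abundant of the 8, measured 689, 625 and 552 FPKM in WT controls 1, 2 and 3, 635, 617 and 501 in WT PTX mice 1, 2 and 3, 655, 635 and 587 in KO controls 1, 2 and 3, and 469.9 and 581 in KO PTX mice 2 and 3. KO PTX 2 was the lowest library and WT control 1 the highest, and the groups overlapped except that both KO PTX libraries lay below the KO controls. *Mbp* followed with 167, 133 and 136 FPKM in WT controls 1, 2 and 3, 153, 149 and 118 in WT PTX mice 1, 2 and 3, 148, 163 and 139.8 in KO controls 1, 2 and 3, and 109 and 164 in KO PTX mice 2 and 3. KO PTX mice held its lowest value and one of its 3 highest, so that every pair of groups overlapped.

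The middle of the range was held by *Mal*, *Prx*, *Cnp* and *Ncmap*. *Mal* measured 71.2, 65.6 and 59.99 FPKM in WT controls 1, 2 and 3, 71.0, 68.3 and 56.1 in WT PTX mice 1, 2 and 3, 70.2, 68.2 and 61.2 in KO controls 1, 2 and 3, and 51.2 and 62.0 in KO PTX mice 2 and 3. Its pattern was close to that of *Pmp22*, with low values in WT PTX 3 and KO PTX 2 and overlap between all groups. *Prx* showed 79.0, 62.2 and 55.3 FPKM in WT controls 1, 2 and 3, 59.98, 58.3 and 43.6 in WT PTX mice 1, 2 and 3, 61.2, 60.1 and 62.1 in KO controls 1, 2 and 3, and 43.9 and 51.9 in KO PTX mice 2 and 3. WT control 1 stood far above the other libraries, the 3 KO controls lay close together, and both KO PTX values were below all control values of either genotype.

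*Cnp* gave 55.3, 46.8 and 45.4 FPKM in WT controls 1, 2 and 3, 43.4, 47.9 and 35.0 in WT PTX mice 1, 2 and 3, 44.5, 39.1 and 44.7 in KO controls 1, 2 and 3, and 36.7 and 36.8 in KO PTX mice 2 and 3. The 3 KO controls were below the 3 WT controls, and the KO PTX libraries were below the KO controls. *Ncmap* gave 26.7, 21.5 and 18.7 FPKM in WT controls 1, 2 and 3, 26.8, 23.5 and 21.8 in WT PTX mice 1, 2 and 3, 24.8, 33.5 and 20.2 in KO controls 1, 2 and 3, and 17.0 and 19.1 in KO PTX mice 2 and 3. Its highest value was in KO control 2 and its lowest in KO PTX 2, and the KO PTX libraries overlapped the WT controls but neither the KO controls nor the WT PTX mice. Of the 2 genes of low level, *Mag* stood at 8.20, 5.80 and 6.23 FPKM in WT controls 1, 2 and 3, 6.47, 6.49 and 4.32 in WT PTX mice 1, 2 and 3, 6.00, 6.28 and 6.69 in KO controls 1, 2 and 3, and 5.21 and 7.84 in KO PTX mice 2 and 3. The highest and the lowest library were both WT, and the groups overlapped. *Egr2* was lowest, at 5.15, 3.02 and 4.74 FPKM in WT controls 1, 2 and 3, 3.65, 3.62 and 4.30 in WT PTX mice 1, 2 and 3, 5.46, 5.09 and 5.89 in KO controls 1, 2 and 3, and 3.03 and 5.54 in KO PTX mice 2 and 3. The 3 KO controls were high and the 3 WT PTX mice were low, but WT control 2 and KO PTX 2 were lower than any of these, and the PTX and control groups overlapped in each genotype.

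**Figure D1:**
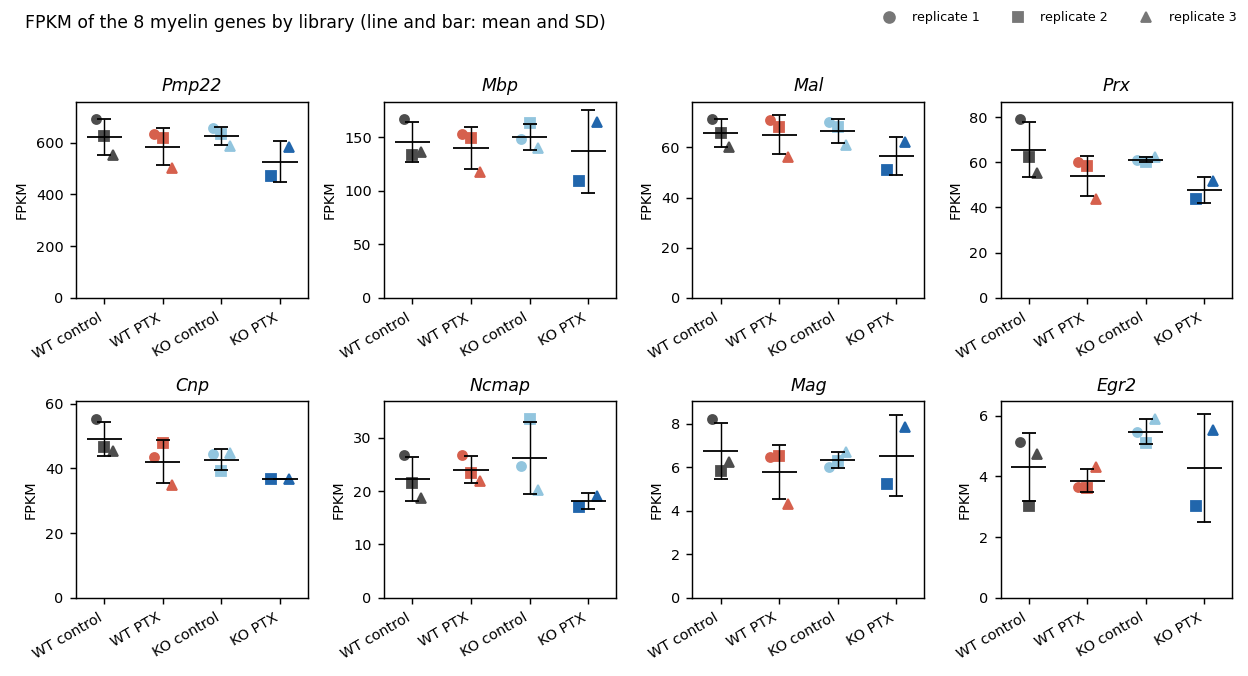
FPKM (y axis, from 0) of each of the 8 genes in the 11 libraries, by group, with horizontal lines at the group mean and bars for the SD (n = 3, or n = 2 for KO PTX). KO PTX 2 (square) lay below KO PTX 3 (triangle) for every gene, with nearly equal values for *Cnp* (36.7 and 36.8 FPKM).

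In WT controls the means were 622 ± 68.5 FPKM for *Pmp22*, 145.5 ± 18.3 for *Mbp*, 65.6 ± 5.60 for *Mal*, 65.5 ± 12.2 for *Prx*, 49.2 ± 5.34 for *Cnp*, 22.3 ± 4.08 for *Ncmap*, 6.74 ± 1.28 for *Mag* and 4.30 ± 1.13 for *Egr2* (SD, n = 3). Neighbours in this order were compared within each library by the ratio of FPKM + 1 on the log2 scale, and tested over the 11 libraries by two-sided exact permutation of the signs. Of the 7 neighbouring pairs, 6 held the order in 11 of 11 libraries (adjusted *P* = 0.00114, from the smallest *P* that 11 sign flips can give). The smallest of these 6 mean differences were 0.41 ± 0.12 (SD, n = 11) for *Prx* over *Cnp* and 0.42 ± 0.26 for *Mag* over *Egr2*. *Mal* exceeded *Prx* by 0.15 ± 0.14 in 9 of 11 libraries (exact adjusted *P* = 0.00781), but their WT control means differed by less than the SD of either gene. Since the WT controls set the order, the 8 other libraries were tested alone, and all 7 pairs kept their direction (exact adjusted *P* = 0.00911 for 6 pairs and 0.0156 for *Mal* over *Prx*).

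The 8 genes varied together across libraries. Each of the 28 pairs had a positive Pearson *r* of log2(FPKM + 1) over the 11 libraries, with a median of 0.64 and a range of 0.06 to 0.97. *Pmp22* and *Mal* were the closest pair (*r* = 0.97), and *Egr2* and *Cnp* the least close. These points share library, depth and scaling, and the *r* values are descriptive. Without WT PTX 3 and KO PTX 2, the 2 libraries farthest from the median, 22 of 28 pairs were positive and the median was 0.37. WT control 1 was the highest library for 6 of the 8 genes. KO PTX 2 was among the 2 lowest libraries for 8 of 8 genes, and WT PTX 3 for 6. Relative to each gene's own mean log2 level, the median of the 8 genes was 0.24 in WT control 1, −0.26 in WT PTX 3, −0.36 in KO PTX 2 and −0.03 in KO PTX 3, and it lay between −0.06 and 0.11 in the other 7 libraries. The 3 libraries at the ends were all among the 4 of fewer than 60000000 counts, and the part of depth in these levels was not tested.

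**Figure D2:**
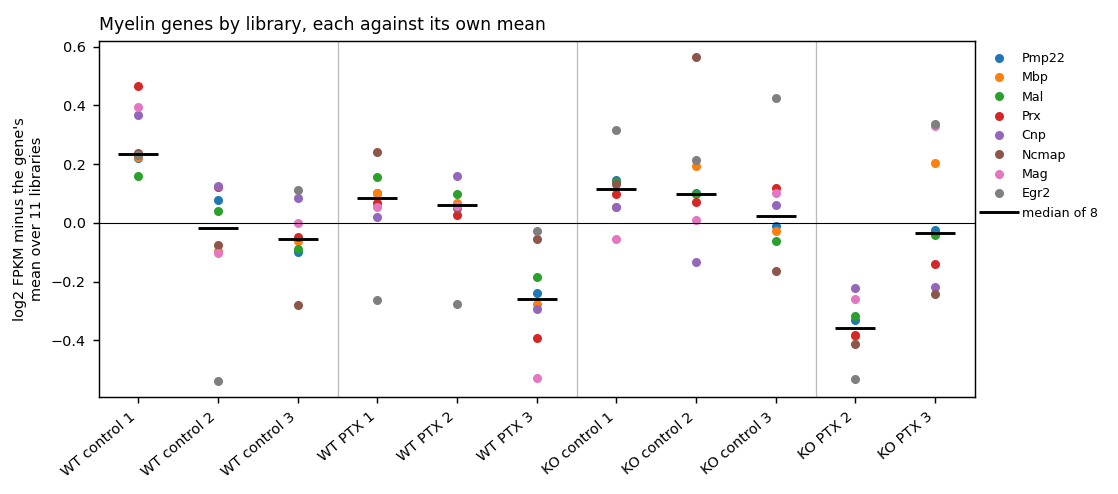
log2 FPKM of each gene minus that gene's mean over the 11 libraries (y axis), by library (x axis, groups parted by vertical lines), with the median of the 8 genes as a black bar. All 8 genes were above their mean in WT control 1 and below it in WT PTX 3 and KO PTX 2.

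The variation of these genes was moderately wide. The coefficient of variation over all libraries had a median of 15.3% for the 8 genes (10.3% for *Mal* to 22.9% for *Egr2*), against 11.3% for the 15087 genes that averaged 0.5 FPKM or more. All 8 genes passed that filter, and their lowest estimated count in any library was 611. Together they took 0.283% to 0.433% of all counts of a library.

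Among 15079 other genes, those whose pattern over the 11 libraries was most like the mean z score of the 8 genes were *Jam3* (*r* = 0.95), *Plekhb1* (0.94), *Fance* (0.93), *Sparc* (0.93), *Micu2* (0.92), *Gsn* (0.92), *Lims2* (0.91), *H2-DMb1* (0.90), *Sema3b* (0.90) and *Mlip* (0.90). *Jam3* encodes a junctional adhesion molecule and *Sparc* a secreted matrix protein. After WT PTX 3 and KO PTX 2 were left out, their *r* ranged from 0.65 for *Gsn* to 0.89 for *Plekhb1*. Ranking by Spearman's rho kept 3 of these 10 genes among the first 10. The most unlike genes were *Nup133* (−0.92), *Hmgn5* (−0.92), *Vopp1* (−0.91), *Dock3* (−0.90) and *Ppp3ca* (−0.89). *Ppp3ca* encodes a calcineurin subunit.

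PTX in WT mice was compared with WT controls to ask whether myelin genes differ at 4 weeks after the drug. The fold values for 7 of the 8 genes were below 1. *Prx* had the lowest, at 0.819-fold of control (95% CI 0.664 to 1.01), followed by *Mag* at 0.851-fold (0.625 to 1.16) and *Cnp* at 0.852-fold (0.725 to 1.00). *Egr2* was at 0.893-fold (0.659 to 1.21), *Pmp22* at 0.935-fold (0.788 to 1.11), *Mbp* at 0.957-fold (0.745 to 1.23), *Mal* at 0.989-fold (0.843 to 1.16) and *Ncmap* at 1.08-fold (0.839 to 1.39). None of the 8 passed edgeR's quasi-likelihood test (adjusted *P* 0.373 to 0.954), in which 1 of 15087 genes (0.00663%) passed. DESeq2 called 0 of the 8 and 2.05% of all genes, and at an unadjusted *P* under 0.05 edgeR gave 0 of the 8 against 13.5% of all genes. No gene of the 8 had all WT PTX libraries below all WT controls, against 7.37% of all genes. The median log2 fold change of the 8 was −0.13, against −0.01 for all genes. In bulk tissue, fewer Schwann cells and less RNA per cell cannot be told apart.

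The ratios in WT differed between the deeper and the shallower libraries. In the libraries of at least 60000000 counts, WT controls 2 and 3 and WT PTX mice 1 and 2, the ratio of mean FPKM in PTX to control had a median of 1.07 over the 8 genes, and ranged from 0.937 for *Egr2* to 1.25 for *Ncmap*. In the shallower pair, WT PTX 3 to WT control 1, the ratio was below 1 for 8 of 8 genes, with a median of 0.717 and a range of 0.527 for *Mag* to 0.835 for *Egr2*. *Mbp* was at 149 and 153 FPKM against 133 and 136 FPKM in the deeper libraries, and at 118 against 167 FPKM in the shallower pair. *Prx* was at 58.3 and 59.98 FPKM against 55.3 and 62.2 FPKM in the deeper libraries, and at 43.6 against 79.0 FPKM in the shallower pair. The shallower pair is 1 mouse per group and also sets a female against a male, and the deeper ratio sets 2 male PTX mice against a male and a female control. An edgeR fit on the 7 deeper libraries, chosen after the data were seen, gave a median log2 fold change of 0.08 and 0 of the 8 genes called. Without WT control 1 the median over the other libraries was 0.01, and without WT PTX 3 it was −0.04. The part of depth in these ratios was not tested.

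In KO mice, PTX was compared with KO controls to ask the same in the absence of *Gpr37l1*. The lowest fold values were those of *Ncmap*, at 0.724-fold of control (95% CI 0.542 to 0.968), and *Egr2*, at 0.732-fold (0.516 to 1.04). *Prx* was at 0.800-fold (0.630 to 1.02), *Pmp22* at 0.859-fold (0.706 to 1.05), *Mal* at 0.869-fold (0.725 to 1.04), *Cnp* at 0.871-fold (0.726 to 1.05), *Mbp* at 0.920-fold (0.691 to 1.22) and *Mag* at 1.04-fold (0.734 to 1.48). None of the 8 passed (edgeR adjusted *P* = 0.999 for each), with 0.00663% of all genes called. DESeq2 called 0 of the 8 and 0.192% of all genes. At an unadjusted *P* under 0.05, edgeR gave only *Ncmap* (unadjusted *P* = 0.0327), that is 1 of 8, against 4.32% of all genes. *Pmp22*, *Prx*, *Cnp* and *Ncmap*, 4 of 8, had both PTX libraries below all 3 controls, against 10.4% of all genes. The median log2 fold change was −0.21, against −0.01 for all genes.

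These values rested on 2 unlike libraries. KO PTX 3 exceeded KO PTX 2 by a factor of 1.24 for *Pmp22*, 1.51 for *Mbp*, 1.505 for *Mag*, 1.18 for *Prx*, 1.21 for *Mal*, 1.83 for *Egr2*, 1.00 for *Cnp* and 1.12 for *Ncmap*. Without KO PTX 2 the median log2 fold change of the 8 genes was 0.01, and without KO PTX 3 it was −0.52. *Ncmap* alone went from −0.17 to −0.74 and *Egr2* from −0.10 to −0.79 between these fits (edgeR adjusted *P* 0.924 to 1.00). *Mobp*, which defines oligodendrocytes, measured 6.11 FPKM in KO PTX 3 and 1.16 FPKM in KO PTX 2, against 0.07 to 0.25 FPKM in the KO controls. The part of oligodendrocyte RNA in these ratios was not tested. Both KO PTX libraries had fewer than 60000000 counts and all 3 KO controls had more, so that PTX and depth cannot be told apart in KO mice.

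**Figure D3:**
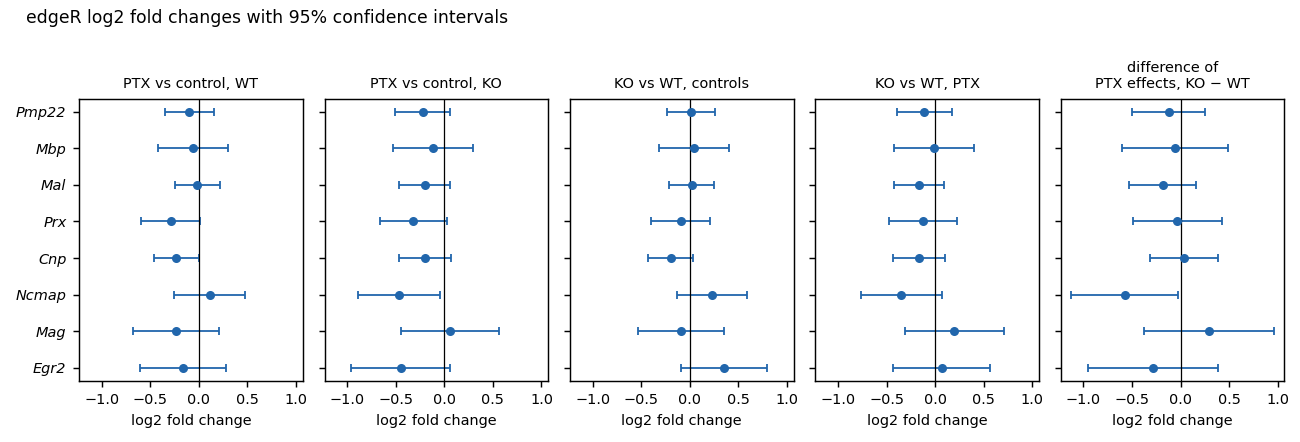
edgeR log2 fold changes (points) with 95% confidence intervals (bars) of the 8 genes in the 5 comparisons, on one x axis. The intervals include 0 except those of *Ncmap* for PTX in KO (−0.47, from −0.89 to −0.05) and for the difference of PTX effects (−0.58, from −1.13 to −0.02), neither of which passed the adjusted test.

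The genotypes were compared without and with PTX to ask what loss of *Gpr37l1* does to the same genes. In controls, *Egr2* had the highest fold value, at 1.28-fold in KO (95% CI 0.942 to 1.73), followed by *Ncmap* at 1.17-fold (0.911 to 1.51). *Cnp* was at 0.872-fold (0.742 to 1.02), and the KO controls lay below the WT controls for this gene alone, 1 of 8, against 4.73% of all genes. *Pmp22* at 1.01-fold (0.848 to 1.20), *Mal* at 1.01-fold (0.865 to 1.19), *Mbp* at 1.03-fold (0.805 to 1.33), *Prx* at 0.938-fold (0.760 to 1.16) and *Mag* at 0.938-fold (0.690 to 1.28) were nearer to 1. No gene of the 8 was called by edgeR (adjusted *P* 0.671 to 0.986, against 0.00663% of all genes called), and DESeq2 called 0 against 0.278% of all genes. At an unadjusted *P* under 0.05 edgeR gave 0 of the 8, against 7.54% of all genes. In the 7 deeper libraries *Cnp* was at −0.10 and *Egr2* at 0.59 on the log2 scale (edgeR adjusted *P* = 0.796 and 0.715).

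After PTX, *Ncmap* was at 0.786-fold in KO relative to WT (95% CI 0.589 to 1.05) and *Mag* at 1.15-fold (0.806 to 1.63), and the other 6 genes were between 0.891-fold and 1.05-fold. *Ncmap* was the 1 gene of 8 with both KO PTX libraries below all WT PTX libraries, against 9.58% of all genes. None was called by edgeR (adjusted *P* 0.993 to 0.996, against 0.0133% of all genes called) or by DESeq2 (0.0663% of all genes), and 0 of the 8 had an unadjusted *P* under 0.05, against 3.55%. The median log2 fold change was −0.12, and it was 0.16 without KO PTX 2 and −0.38 without KO PTX 3. Both KO PTX libraries were among the shallower ones, but of the WT PTX libraries only WT PTX 3 was. The part of depth in this comparison was not tested.

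Whether PTX acted differently in the genotypes was tested by the difference of the PTX effects, KO minus WT. Both KO PTX libraries were among the shallower ones and all KO controls among the deeper, while each WT group held 1 shallower library. The part of depth in the difference was not tested. For *Ncmap* this difference was −0.58 ± 0.25 on the log2 scale (SE), from 0.11 in WT and −0.47 in KO. Its unadjusted *P* of 0.0425 did not survive the correction (edgeR adjusted *P* = 0.724), and the difference was −0.28 without KO PTX 2 and −0.84 without KO PTX 3. The other 7 differences lay between −0.29 for *Egr2* and 0.29 for *Mag*. edgeR called 0 of the 8, against 0.00663% of all genes, DESeq2 called 0, against 0.0795%, and 1 of 8 had an unadjusted *P* under 0.05, against 6.30% of all genes. The 95% intervals reach from −0.32 to 0.38 for *Cnp* and from −0.38 to 0.96 for *Mag*, so that equal effects are not shown.

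Other genes of the pathway were counted in 4 lists. Among 15 further components of peripheral myelin, 11 had a negative log2 fold change after PTX in WT and 14 in KO, with medians of −0.05 and −0.14. None passed edgeR's test. *Pmp2*, a fatty acid binding protein of myelin, was at 0.31 ± 0.37 (SE) in WT and −0.58 ± 0.41 in KO. *Ugt8a*, which makes the myelin lipid galactosylceramide, was at 0.06 ± 0.16 in WT and −0.52 ± 0.18 in KO (edgeR adjusted *P* = 0.888 and 0.999). *Dhh*, a Schwann cell signal to the nerve sheath, was at −0.27 ± 0.10 in WT and −0.08 ± 0.11 in KO (edgeR adjusted *P* = 0.309 and 0.999). In KO, both PTX libraries lay below all controls for 8 of these 15 genes, compared with the 10.4% of all genes given above. Only *Ugt8a* had an unadjusted *P* under 0.05 in KO (edgeR, 0.0161), against 4.32% of all genes. Both KO PTX libraries were among the shallower ones and all KO controls among the deeper. The part of depth in these values was not tested.

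The regulators of the program were split in direction. Of 14 genes listed, *Nfatc4* was under the filter on low values, and 4 of the 13 tested were negative after PTX in WT and 6 in KO, with medians of 0.10 and 0.00. *Lgi4*, a secreted Schwann cell protein needed for myelination, was at −0.34 ± 0.13 (SE) in WT and −0.20 ± 0.15 in KO, and *Pou3f1*, which acts before *Egr2*, at 0.18 ± 0.26 and 0.18 ± 0.29. *Sox10*, named after its values were seen, was at −0.01 ± 0.08 and 0.05 ± 0.09, with group means of 28.7 FPKM in WT controls and 28.8 FPKM in KO PTX mice. No regulator passed edgeR's test in either comparison.

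Basal lamina genes and their receptors were negative in 7 of 11 cases after PTX in WT and in 11 of 11 in KO, with medians of −0.07 and −0.17. In KO, 5 of the 11 had an unadjusted *P* under 0.05, against 4.32% of all genes, and none had an adjusted *P* below 0.999 in edgeR. Fibroblast and perineurial markers were negative beside them in KO, in 5 of 5 cases with a median of −0.55, and 4 of the 5 had an unadjusted *P* under 0.05. The sum of these markers was low in KO PTX 2 (88.4 FPKM) but within the range of the KO controls in KO PTX 3 (150.4 FPKM). Their part in the basal lamina values was not tested. *Lama2* and *Lama4*, which encode laminin chains of basal laminae, were at −0.43 ± 0.14 (SE) and −0.31 ± 0.10 in KO and at −0.07 ± 0.12 and −0.09 ± 0.08 in WT. *Itgb4*, a laminin receptor, was at −0.29 ± 0.14 in WT and −0.13 ± 0.16 in KO, and *Utrn*, an anchor of the dystroglycan complex, at 0.22 ± 0.10 and −0.03 ± 0.11.

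Genes of immature and repair Schwann cells, which are high when myelin genes are low after nerve injury, were split in direction. The ganglia were sequenced whole, so values of this list cannot be assigned to Schwann cells or read as their state. Of 15 genes, *Olig1*, *Artn* and *Gdnf* were under the filter, and 7 of 12 were negative after PTX in WT and 6 in KO, with medians of −0.05 and 0.00 and none past edgeR's threshold. In WT, 3 of the 12 had an unadjusted *P* under 0.05, against 13.5% of all genes, and in KO 0 of 12, against 4.32%. The 3 were *Gap43* and, named after their values were seen, *Ngfr* and *Shh*. *Ngfr*, the low-affinity neurotrophin receptor, was at −0.35 ± 0.10 (SE) in WT and 0.04 ± 0.12 in KO (edgeR adjusted *P* = 0.264 and 0.999). Its WT means were 183 FPKM after PTX and 233 FPKM in controls. All WT PTX libraries lay below all WT controls for *Ngfr*, as they did for 7.37% of all genes. *Shh*, a secreted morphogen, was at 0.40 ± 0.13 in WT and at 0.09 ± 0.14 in KO (edgeR adjusted *P* = 0.276 and 0.999). *Bdnf*, a neurotrophin, was at −0.72 ± 0.36 (SE) in WT and −0.10 in KO, and *Gap43*, a growth cone protein, at −0.50 ± 0.16 in WT and −0.03 in KO. *Notch1* and *L1cam* were at 0.16 and 0.12 in KO. The summed FPKM of this list was 456 to 678 in WT controls, 422 to 456 in WT PTX mice, 451 to 524 in KO controls and 466 to 489.9 in KO PTX mice.

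**Figure D4:**
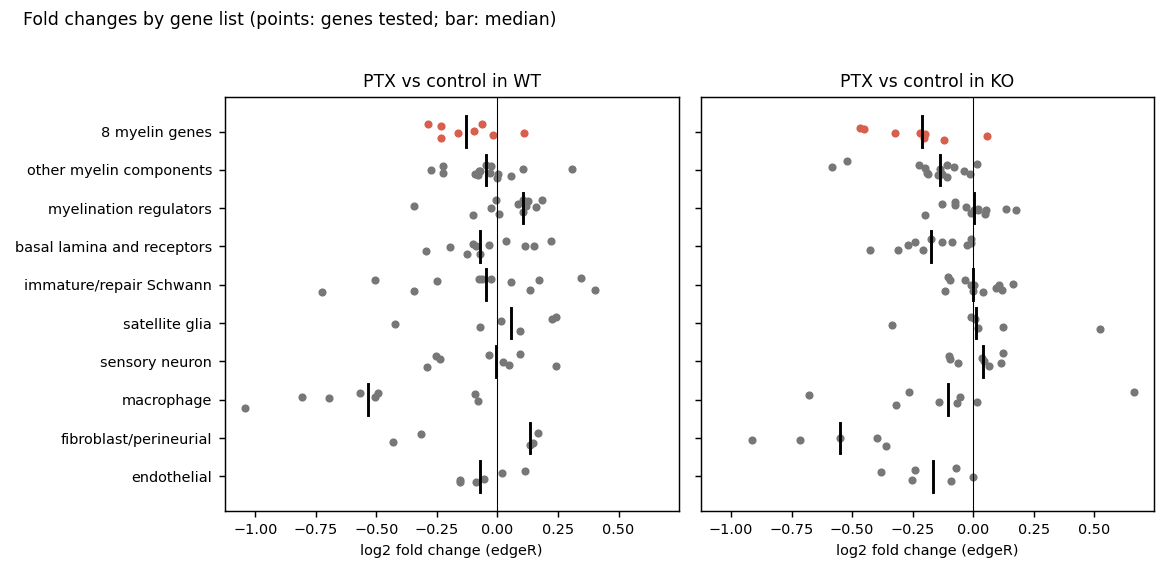
edgeR log2 fold changes after PTX in WT (left) and KO (right) of the tested genes of each list (points, x axis), with the list's median as a bar. The 8 myelin genes (red) had medians of −0.13 and −0.21, the myelination regulators 0.10 and 0.00.

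Markers of other tissues differed between libraries as well, and their part in the myelin gene values was not tested. The 8 myelin genes summed to 736 to 1101 FPKM, and KO PTX 2 and WT PTX 3 were the lowest libraries. Skeletal muscle markers, 7 genes, summed to 3.20 FPKM in the WT PTX mouse with the least and to 558 FPKM in the KO control with the most. Fibroblast and perineurial markers, 5 genes, summed to 88.4 FPKM in KO PTX 2 and 150.4 FPKM in KO PTX 3, against 142.5 to 178 FPKM in the KO controls, 109.8 to 173 FPKM in WT controls and 119 to 144 FPKM in WT PTX mice. Oligodendrocyte markers were highest in KO PTX 3, in which *Mbp*, *Mag* and *Egr2* were near the top of their ranges. In the same library *Cnp*, *Prx* and *Ncmap* were near the bottom, and *Mal* and *Pmp22* lay between. Each end held genes also used by oligodendrocytes as well as largely Schwann cell genes. The part of oligodendrocyte RNA in these positions was not tested.

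**Figure D5:**
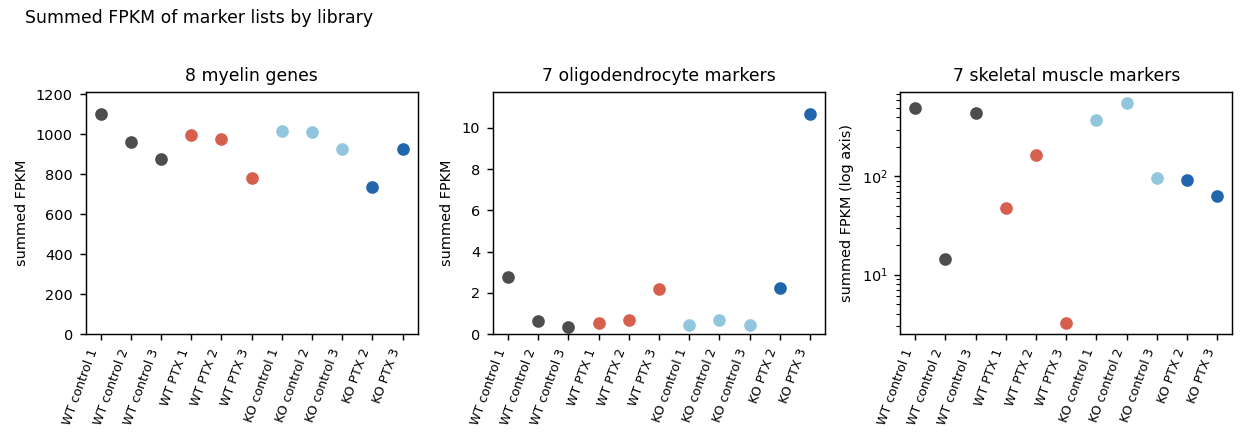
Summed FPKM (y axis) of the 8 myelin genes, of 7 oligodendrocyte markers and of 7 skeletal muscle markers (log axis) in each library (x axis, coloured by group). The oligodendrocyte sum was 10.7 FPKM in KO PTX 3 and at most 2.78 FPKM in the other libraries.

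Each gene lies at the following place in mm10, as deposited: *Pmp22* at chr11:63128982-63159547 and *Cnp* at chr11:100574904-100591729 on the plus strand, *Prx* at chr7:27497388-27520214 on the plus strand and *Mag* at chr7:30899176-30914865 on the minus strand, *Mal* at chr2:127633226-127656695 and *Ncmap* at chr4:135369576-135398227 on the minus strand, and *Egr2* at chr10:67535475-67542188 and *Mbp* at chr18:82475146-82585637 on the plus strand. In GENCODE M21, *Cnp* overlaps *Dnajc7* and *Prx* overlaps the antisense gene *Gm15541*, both on the opposite strand. *Dnajc7* measured 18.9 to 23.5 FPKM and *Gm15541* 0.27 to 0.51 FPKM over the 11 libraries. *Mbp* and *Ncmap* each overlap a processed pseudogene on the opposite strand. Whether counting used strand is not stated, so that reads of *Cnp* and *Dnajc7* may not be fully parted.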

How the data were processed

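RNA-Seq was analysed from 11 DRG libraries, made per the labels from poly(A) RNA with a stranded kit. The submitters' processing notes name cutadapt, FastQC, HISAT2, StringTie and mm10, without versions. The authors deposited for each gene an FPKM and an estimated count that was not normalized. In WT control 1, 1369 genes had a count of 4, against 573 at 3 and 334 at 5, so counts were treated as estimates and rounded to whole numbers. Total counts were 52735648 to 80348732 per library.

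edgeR 4.0.16 (R 4.3.3) was fitted to all libraries with TMM scaling, labelled sex as covariate and the quasi-likelihood test, for 15087 genes averaging 0.5 FPKM or more, at a Benjamini-Hochberg adjusted *P* under 0.05. The test the authors used is not given in the sources used here. SEs are the log2 fold change over the square root of F. Alternatives were DESeq2 1.42.0, limma 3.58.1 on log2(FPKM + 1) or log2(FPKM + 0.1), other scalings, filters and covariates, and each library left out. A fit without the 4 libraries of fewer than 60000000 counts was chosen after the data were seen. Fits were tested on simulated data.

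Same-numbered libraries deviated together between KO and WT controls (correlations of 0.11 to 0.23 over genes, 3 pairs), where number 3 is also the female. This pairing comes from the numbers in the labels.

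The 8 genes, the lists and the tests were chosen with earlier results of these data known. Named were the 8 genes, of each other list every gene past the threshold and the 2 with the largest absolute log2 fold change in a PTX comparison, and the 10 genes most like and 5 most unlike the 8. Promoter windows are from RefSeq (GRCm38.p6). Some items are not reported here.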

Additional observations from a re-analysis of the deposited data

How the results depend on the processing

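None of the 8 genes was called in any of the 5 comparisons under any of the 24 other settings that could be applied to it, and their lowest adjusted *P* was 0.239. Of 928 log2 fold changes of the 8 genes under these settings, 872 kept the sign and 56 did not, 46 of the latter with 1 library left out. The count of all genes called was less stable. DESeq2 called 309 genes in WT after PTX, 29 in KO after PTX, 42 for KO against WT controls, 10 for KO against WT after PTX and 12 for the difference of effects, against 1, 1, 1, 2 and 1 in edgeR. With only the libraries of the groups compared, edgeR called 5 genes in WT after PTX, 4 in KO after PTX and 5 for the genotypes after PTX. For PTX in WT, 2 genes were called with no filter on low values, and 0 without the sex covariate and in the limma fits with a pseudocount of 1, of 0.1, and of 1 with no filter. The limma fit with no filter called 2 for PTX in KO. On the 7 deeper libraries the counts were 0 for PTX in WT and 2 for the genotypes in controls, and the median log2 fold change of the 8 genes for PTX in WT was 0.078 in place of −0.13. With each library left out, the genes called ranged from 0 to 30 in WT after PTX, 1 to 7 in KO after PTX, 1 to 4 and 2 to 7 for the genotypes in controls and after PTX, and 1 to 6 for the difference.

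With each library left out, the median log2 fold change of the 8 genes ranged from −0.21 to 0.0063 in WT after PTX, −0.52 to 0.0088 in KO after PTX, −0.036 to 0.082 and −0.38 to 0.16 for the genotypes in controls and after PTX, and −0.42 to 0.16 for the difference of effects. In the 3 comparisons that use KO PTX, both ends came from leaving out a KO PTX library. The lone library is then assumed to vary like the other groups. Log2 fold changes of single genes that took the other sign in such a fit ranged for PTX in WT from −0.14 to 0.054 for *Mbp*, −0.059 to 0.037 for *Mal* and −0.33 to 0.10 for *Egr2*. For PTX in KO they ranged from −0.50 to 0.074 for *Pmp22*, −0.54 to 0.30 for *Mbp*, −0.36 to 0.46 for *Mag* and −0.46 to 0.073 for *Mal*. Between the genotypes in controls the ranges were −0.054 to 0.080 for *Pmp22*, −0.037 to 0.16 for *Mbp*, −0.20 to 0.084 for *Mag*, −0.19 to 0.051 for *Prx* and −0.017 to 0.073 for *Mal*. After PTX they were −0.39 to 0.18 for *Pmp22*, −0.43 to 0.41 for *Mbp*, −0.20 to 0.62 for *Mag*, −0.38 to 0.15 for *Prx*, −0.42 to 0.11 for *Mal* and −0.28 to 0.41 for *Egr2*. For the difference of effects they were −0.40 to 0.18 for *Pmp22*, −0.47 to 0.37 for *Mbp*, −0.11 to 0.71 for *Mag*, −0.28 to 0.24 for *Prx*, −0.44 to 0.10 for *Mal*, −0.62 to 0.072 for *Egr2* and −0.061 to 0.14 for *Cnp*. On the deeper libraries, PTX in WT gave 0.11 for *Mbp*, 0.15 for *Mag*, 0.054 for *Mal* and 0.10 for *Egr2*, and the genotypes in controls gave 0.093 for *Mag* and 0.053 for *Prx*. *Mag* was at −0.029 for PTX in KO with only the KO libraries, and *Pmp22* at −0.0046 for the genotypes in controls with upper-quartile scaling.

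With the replicate number as a block in place of sex, the median log2 fold change of the 8 genes was −0.11 in WT after PTX, −0.18 in KO after PTX, 0.017 and −0.081 for the genotypes in controls and after PTX, and −0.062 for the difference. No call among the 8 genes changed under the block, *Mbp* was at 0.025 for the genotypes after PTX and *Prx* at 0.0030 for the difference of effects. Outside the controls, same-numbered libraries correlated at −0.16 to 0.04 in WT after PTX, 0.07 to 0.09 in KO after PTX and 0.05 to 0.16 after PTX. The cause of these shifts was not tested. The KO PTX group held 2 libraries, and for PTX in KO the 95% interval of *Pmp22* reached from 0.706-fold to 1.05-fold. Ranking by Spearman's rho in place of Pearson's *r* kept 3 of the 10 genes most like the 8.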

Other observations

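Genes of other cells of the ganglion were also counted after PTX, and none of the genes of these lists passed edgeR's adjusted test. In WT mice, 8 of 8 macrophage genes had a negative log2 fold change, with a median of −0.54, and 6 had an unadjusted *P* under 0.05, against 13.5% of all genes. All 3 WT PTX libraries lay below all 3 WT controls for 5 of them, against 7.37% of all genes. *Aif1* was at −1.04 ± 0.32 (SE) and *C1qb*, a complement component of macrophages, at −0.81 ± 0.17 (edgeR adjusted *P* = 0.270 and 0.204). In KO mice the macrophage median was −0.10, with *Aif1* at 0.66 ± 0.36 and *Cd163* at −0.68 ± 0.35.

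Fibroblast and perineurial genes were negative in 5 of 5 cases after PTX in KO, with a median of −0.55, and 4 had an unadjusted *P* under 0.05, against 4.32% of all genes. Their sum was low in KO PTX 2 (88.4 FPKM) but not in KO PTX 3 (150.4 FPKM), against 142.5 to 178 FPKM in KO controls. Only for *Col1a2* and *Lum* did both PTX libraries lie below all controls. The collagen genes *Col1a1* and *Col1a2* were at −0.91 ± 0.32 (SE) and −0.71 ± 0.21 in KO, and at −0.43 ± 0.27 and −0.32 ± 0.18 in WT (edgeR adjusted *P* = 0.999 for both in KO). Satellite glial genes had medians of 0.06 in WT and 0.01 in KO. *Fabp7*, a marker of these cells, was at −0.42 ± 0.11 in WT and −0.34 ± 0.12 in KO, *Ptprz1* was at 0.24 in WT, and the glutamate transporter gene *Slc1a3* was at 0.52 ± 0.16 in KO and 0.02 ± 0.14 in WT. In KO, *Kcnj10* was at 0.12, *Ptprz1* at 0.02, *Cdh1* at 0.01 and *Glul* at −0.01. Both KO PTX libraries were shallower than all KO controls and had higher oligodendrocyte marker sums. The part of either in the *Slc1a3* value was not tested.

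Sensory neuron genes had medians of −0.01 in WT and 0.04 in KO, with *Tubb3* at −0.29 and *Prph* at −0.25 in WT and *Nefh* at 0.12 and *Rbfox3* at 0.11 in KO. Endothelial genes had medians of −0.07 and −0.17, with *Egfl7* and *Kdr* both at −0.15 in WT and *Cdh5* at −0.38 and *Cldn5* at −0.25 in KO. Skeletal muscle genes had medians of −2.80 and −1.51. In WT, *Myh4* was at −2.89 ± 1.49 (SE) and *Tnnt3* at −2.87 ± 1.33. In KO, *Mylpf* was at −1.94 ± 1.33 and *Tnni2* at −1.94 ± 1.49. None of the muscle genes had an unadjusted *P* under 0.05 in edgeR in either genotype. Their sum overlapped between the WT groups, at 14.4 to 502 FPKM in controls and 3.20 to 166 FPKM after PTX. In KO it was 95.8 to 558 FPKM in controls and 63.6 to 91.7 FPKM after PTX. Blood genes had medians of −0.49 and −0.29, with *Hbb-bt* at −0.61 and *Hbb-bs* at −0.50 in WT and at −0.62 and −0.46 in KO. Of the 7 oligodendrocyte genes only *Mobp* was tested, at −0.92 ± 1.36 (SE) in WT and 4.10 ± 1.44 in KO. It measured 6.11 FPKM in KO PTX 3 and 1.16 FPKM in KO PTX 2. Its mean exceeded the filter on low values through KO PTX 3. The value in KO thus includes the library that let the gene into the test. KO PTX 2 also lay above the KO controls, which measured 0.07 to 0.25 FPKM.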
